A study of Homo sapiens with 12 samples.

Results

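The regulators of mitochondrial biogenesis described here are 10 nuclear genes, picked by symbol from the deposited Huh7 table of 60666 genes. They are the PGC-1 family coactivators PPARGC1A, PPARGC1B and PPRC1, the DNA-binding factors NRF1, GABPA, ESRRA and YY1, the GABP subunit GABPB1, and the NAD-dependent deacetylases SIRT1 and SIRT3. All 10 were listed, and 8 of them reached at least 1 TPM (a transcript level that takes gene length into account and is scaled to a fixed total per library) in at least 3 libraries and were tested. PPARGC1A and PPARGC1B did not reach that level and were left out of that test. They are given by their values, by a fit with no filter on TPM and in ratios. The cells were Huh7, a line established from a human hepatocellular carcinoma and grown in high-glucose medium with serum, and their RNA was sequenced to see which genes differ once FAM111B, which encodes a serine protease, is silenced. The control cells and the shFAM111B cells had 3 libraries each, and the Hep3B libraries of the series were not analysed here. Knockdown was stable, by a lentiviral short hairpin RNA followed by puromycin selection, so each group was a selected cell population. No label says that the libraries of a group came from separate cultures, so the p-values measure only the spread between these libraries, which may be technical.

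Mitochondria are built from proteins of both the nuclear and the mitochondrial genome, and a small set of nuclear regulators sets the output of the nuclear part. NRF1 and GABP (GABPA, which binds DNA, with GABPB1, which activates) bind the promoters of respiratory chain genes and of TFAM and TFB2M, the factors that transcribe mitochondrial DNA. The PGC-1 coactivators do not bind DNA themselves and act through NRF1, GABP, ESRRA, YY1 and nuclear receptors, SIRT1 deacetylates PGC-1alpha, and SIRT3 deacetylates proteins inside mitochondria. In liver, PGC-1alpha is best known for gluconeogenesis and fatty acid oxidation during fasting.

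The knocked-down gene was checked first. FAM111B (ENSG00000189057) had 7.84, 8.29 and 7.99 TPM in the control libraries and 0.96, 1.13 and 0.84 TPM in the shFAM111B libraries. Hepatocyte and liver cancer markers such as ALB and AFP were at 38.5 to 25038 TPM in every library, and their sum went from 27947 to 28518 TPM in the control up to 41574 to 46535 TPM in the shFAM111B libraries, although 6 of the 10 fell (APOB by 2.27 on the log2 scale) and 4 rose, among them AFP by 1.66. Markers of other cell types were low but higher in the shFAM111B cells for 2 of 3 lists: the sum over 5 fibroblast genes was 7.19 to 10.2 TPM in the control and 11.6 to 16.5 TPM in the shFAM111B libraries, that over 4 leukocyte genes 15.1 to 18.6 and 21.9 to 23.6 TPM, and that over 3 endothelial genes 1.26 to 2.29 and 2.15 to 3.49 TPM. LUM, COL1A2 and CD68 rose. CD68 made up most of the leukocyte sum, at 15 to 17.6 TPM in the control and 21.9 to 23.4 TPM in the shFAM111B libraries. LUM, at 0.67 to 1.14 TPM in the control, passed the filter only through the shFAM111B libraries. COL1A1 was lower (0.57, 0.68 and 0.76 TPM against 0.26, 0.32 and 0.21 TPM). PTPRC went from 0.13, 0.04 and 2.39 TPM to 0.02 TPM or less. COL3A1 was at 0.94 TPM or less, and DCN, VWF, CDH5 and CD3E at 0.13 TPM or less, in every library. The part of these markers in the results was not tested. TPM are shares of a fixed total and hold no sequencing depth, so neither the depth nor a counting error is known. Transcripts of the mitochondrial chromosome took 19.7% to 20.2% of the TPM in the control libraries and 7.37% to 8.06% in the shFAM111B libraries, and short non-coding RNAs took 0.165% to 0.486% in the control and 4.74%, 7.02% and 0.504% in shFAM111B replicates 1 to 3. Across the 14394 tested genes the median log2 fold change was -0.36 (shFAM111B over control, on the log2(TPM + 1) scale), and long transcripts were lower more often than short ones. The median was 0.43 for the 1484 genes whose longest transcript was up to 1000 nt and -0.78 for the 4346 genes of 4000 to 8000 nt. The 10 regulators have longest transcripts of 2283 to 10568 nt, with 6 of them between 4000 and 8000 nt. The part of this trend and of the shifts in composition in the results below was not tested, and each tested regulator is therefore also given relative to the median gene and with the trend removed. In a bulk sample, fewer cells that express a gene and less of its RNA per cell cannot be told apart.

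All 8 tested regulators had lower mean levels in the shFAM111B cells, and 7 of them fell at an adjusted p under 0.05 (limma, with Benjamini-Hochberg adjustment over all tested genes). Over all tested genes 50.9% fell by that criterion. The groups did not overlap in the same 7 genes, beside 52.8% of all tested genes that were lower without overlap. Of the 8, 5 also fell by at least 2-fold (NRF1, GABPA, GABPB1, YY1 and SIRT1), beside 23.7% of all tested genes, and 0 rose by either criterion, beside 6.77% of all tested genes that rose at least 2-fold and 21.1% at the adjusted p alone. The median log2 fold change of the 8 regulators was -1.02, beside -0.36 over all tested genes. The largest falls were in the GABP subunits, and ESRRA was the tested member that did not pass.

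**Figure D1:**
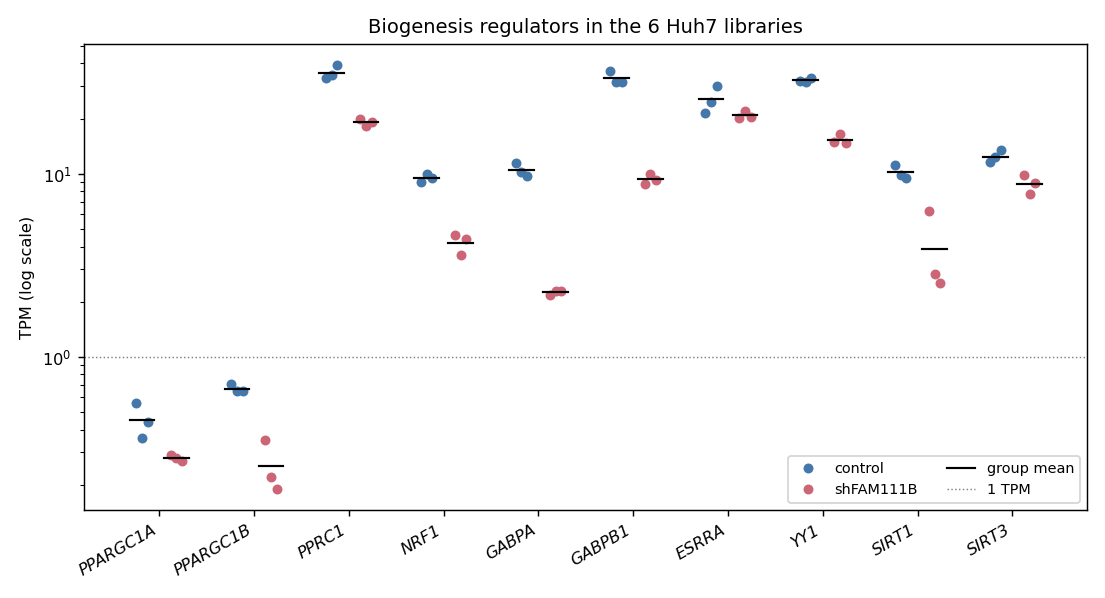
TPM (log axis) of the 10 regulators in each Huh7 library, with control libraries in blue, shFAM111B libraries in red and a bar at each group mean (n = 3); the dotted line marks 1 TPM. The groups are separate in 9 of the 10 genes, ESRRA overlaps, PPARGC1A and PPARGC1B lie under 1 TPM in every library, and SIRT1 has 1 shFAM111B library above the other 2.

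The PGC-1 coactivators differed greatly in level. PPARGC1A (ENSG00000109819, chr4:23755041-23904089, minus strand), which encodes PGC-1alpha, had 0.56, 0.36 and 0.44 TPM in the control and 0.29, 0.28 and 0.27 TPM in the shFAM111B libraries. PPARGC1B (ENSG00000155846, chr5:149730298-149855022, plus strand), which encodes PGC-1beta, had 0.71, 0.65 and 0.65 TPM in the control and 0.35, 0.22 and 0.19 TPM in the shFAM111B libraries. Both were under 1 TPM throughout, and in both every control value lay above every shFAM111B value. With no filter on TPM, the log2 fold change was -0.18 for PPARGC1A (limma adjusted p = 0.148) and -0.42 for PPARGC1B (limma adjusted p = 0.0128), and at such levels the pseudocount of 1 makes changes look smaller than they are in TPM.

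PPRC1 (ENSG00000148840, chr10:102132994-102150331, plus strand), the PGC-1-related coactivator, was the abundant member of the family. It had 33.18, 34.52 and 39.17 TPM in the control and 19.91, 18.24 and 19.18 TPM in the shFAM111B libraries. The groups did not overlap, and the mean went from 35.6 ± 3.14 to 19.1 ± 0.837 TPM (SD, n = 3), which left 53.6% of the control level. The log2 fold change was -0.86 (standard error 0.0804, limma adjusted p = 6.83e-05), or -0.50 relative to the median gene. With the trend with transcript length and level removed it was -0.09 (limma adjusted p = 0.376). PPRC1 made up 96.3% to 97.3% of the summed TPM of the 3 coactivators in the control and 96.9% to 97.7% in the shFAM111B libraries, so the family's total went from 34.4 to 40.3 TPM down to 18.7 to 20.6 TPM with little change in its makeup.

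The start of PPRC1 is shown because it holds a match to the element of another regulator in the set, YY1. The 30 bases at chr10:102133057-102133086 (GRCh38.p14, RefSeq, plus strand, which is the strand of the gene) are as follows, with the longer form of the YY1 element in capitals.
PPRC1: tcaggggccAAGATGGCGGCgcgccgggga
The match begins at base 27 from the RefSeq start, and its ATG at position 102133069 is where the coding sequence of PPRC1 begins in GENCODE v29, so it spans the end of the 5′ untranslated region and the first codons. This longer form was found in 0.849% of 35116 RefSeq promoters (from 250 bases before to 50 bases after the start, both strands), and its shorter form AAGATGGCG, which the longer one contains, in 1.75%.

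GABPA (ENSG00000154727, chr21:25734570-25772460, plus strand), the ETS-family subunit through which GABP binds DNA, showed the largest fall of the set. It had 11.4, 10.24 and 9.66 TPM in the control and 2.18, 2.3 and 2.28 TPM in the shFAM111B libraries. The groups were far apart, and the shFAM111B libraries lay close together. The shFAM111B mean was 21.6% of the control mean, with a log2 fold change of -1.81 (standard error 0.104, limma adjusted p = 8.59e-06), -1.45 relative to the median gene and -1.01 with the trend removed (limma adjusted p = 0.000129). Of all tested genes, 4.68% had as low or a lower fold change.

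GABPB1 (ENSG00000104064, chr15:50275392-50355408, minus strand), the subunit that carries the activation domain, fell with it. The control libraries had 36.62, 31.58 and 31.64 TPM and the shFAM111B libraries 8.77, 9.95 and 9.23 TPM. The lowest control value was above 3 times the highest shFAM111B value, and the mean was 28.0% of the control. Its log2 fold change was -1.73 (standard error 0.0879, limma adjusted p = 5.70e-06), -1.37 relative to the median gene and -0.95 with the trend removed (limma adjusted p = 8.33e-05). GABPB2, which encodes the alternative beta subunit, had 0.85, 1.33 and 0.86 TPM in the control and 0.80, 1.59 and 0.28 TPM in the shFAM111B libraries. Its groups overlapped, and it was too low to be tested.

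GABPB1 was more abundant than its partner GABPA in every library. The ratio of GABPB1 to GABPA was 3.21, 3.08 and 3.28 in the control and 4.02, 4.33 and 4.05 in the shFAM111B libraries. The ratio was thus 1.29-fold higher in the shFAM111B libraries without overlap, a difference of 0.37 on the log2 scale (two-sided exact permutation p = 0.1, the smallest that 3 against 3 libraries can give, and 0.125 after adjustment over 5 ratios). A ratio within a library does not depend on how that library was scaled. With 1 TPM added to both genes the difference was 0.08.

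IGSF3 and ZFP91 were among the 3 genes whose levels followed GABPA most closely over the 6 libraries, out of 9763 tested genes that averaged 5 TPM or more. Their root mean square distance from GABPA was 0.0388 and 0.0400 on the log2 scale. ZFP91, which encodes a zinc finger protein, had 27.28, 24.79 and 23.29 TPM in the control and 6.18, 6.1 and 6.28 TPM in the shFAM111B libraries.

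NRF1 (ENSG00000106459, chr7:129611714-129757082, plus strand), nuclear respiratory factor 1, had 9.01, 9.92 and 9.42 TPM in the control and 4.61, 3.61 and 4.4 TPM in the shFAM111B libraries. The groups did not overlap, and 44.5% of the control mean was left. The log2 fold change of NRF1 was -1.01 (standard error 0.111, limma adjusted p = 0.000154), -0.65 relative to the median gene and -0.43 with the trend removed (limma adjusted p = 0.0108). It lay at the 2-fold limit, and without control replicate 2 or shFAM111B replicate 2 it was -0.98 and -0.92 and no longer reached it.

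YY1 (ENSG00000100811, chr14:100238298-100282792, plus strand), a zinc finger factor through which PGC-1alpha acts on mitochondrial genes, was the most even of the tested regulators in the control, at 32.27, 31.79 and 33.14 TPM. The shFAM111B libraries had 14.86, 16.4 and 14.68 TPM. Levels in the shFAM111B cells were less than 50% of the control in mean, at 47.3%, and the groups did not overlap. The log2 fold change of YY1 was -1.04 (standard error 0.0682, limma adjusted p = 1.46e-05), -0.67 relative to the median gene and -0.16 with the trend removed (limma adjusted p = 0.0695). Its retrogene relative YY2 was under 1 TPM in every library.

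ESRRA (ENSG00000173153, chr11:64305572-64316743, plus strand), the orphan nuclear receptor ERRalpha, was the only tested member that did not pass with the TPM as deposited. It had 21.56, 24.75 and 30.24 TPM in the control and 20.12, 21.99 and 20.3 TPM in the shFAM111B libraries, and the groups overlapped. The log2 fold change was -0.27, with a 95% interval from -0.56 to 0.019 (limma adjusted p = 0.0826), and control replicate 3 was the highest value. Relative to the median gene it was 0.09, and with the trend removed -0.02 (limma adjusted p = 0.895). PPRC1, YY1, SIRT1 and SIRT3 did not pass with the trend removed either. The values of ESRRA do not show that ESRRA stayed the same. Its relatives ESRRB and ESRRG were at 0.26 TPM or less in every library. The ratio of ESRRA to NRF1 was 2.39, 2.49 and 3.21 in the control and 4.36, 6.09 and 4.61 in the shFAM111B libraries, which was 1.86-fold higher without overlap (exact permutation p = 0.1, the smallest possible, adjusted p = 0.125).

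SIRT1 (ENSG00000096717, chr10:67884669-67918390, plus strand), the nuclear deacetylase, had 11.2, 9.78 and 9.49 TPM in the control and 6.23, 2.82 and 2.53 TPM in the shFAM111B libraries. The groups did not overlap, but shFAM111B replicate 1 was 2.33 times the mean of the other shFAM111B libraries. The log2 fold change was -1.27 (standard error 0.269, limma adjusted p = 0.00411), and without shFAM111B replicate 1 it was -1.60 (limma adjusted p = 0.00013). The SD of SIRT1 was 0.57 on the log2 scale in the shFAM111B group and 0.12 in the control. Relative to the median gene the log2 fold change of SIRT1 was -0.91, and with the trend removed -0.59 (limma adjusted p = 0.0857).

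SIRT3 (ENSG00000142082, chr11:215458-236931, minus strand), the main mitochondrial deacetylase, had 11.53, 12.3 and 13.41 TPM in the control and 9.84, 7.72 and 8.86 TPM in the shFAM111B libraries. The groups did not overlap, and 70.9% of the control mean was left. The log2 fold change of SIRT3 was -0.46 (standard error 0.11, limma adjusted p = 0.00759), which was -0.09 relative to the median gene and also -0.09 with the trend removed (limma adjusted p = 0.481). The ratio of SIRT3 to SIRT1 was 1.03, 1.26 and 1.41 in the control and 1.58, 2.74 and 3.50 in the shFAM111B libraries, with no overlap (2.02-fold higher, exact permutation p = 0.1, adjusted p = 0.125). The ratio was lowest among the shFAM111B libraries in replicate 1, the library in which SIRT1 was high. Among the other sirtuins, SIRT5, a mitochondrial deacylase, fell (-0.41, limma adjusted p = 0.0272) and SIRT7, a nuclear one, rose (0.33, limma adjusted p = 0.0344). SIRT2, SIRT4 and SIRT6 did not pass, with log2 fold changes of 0.07, 0.42 and 0.20. SIRT5 was at the median gene (-0.05 relative to it). Under the median of ratios it did not pass (-0.018, limma adjusted p = 0.912), while SIRT2, SIRT4, SIRT6 and SIRT7 rose.

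**Figure D2:**
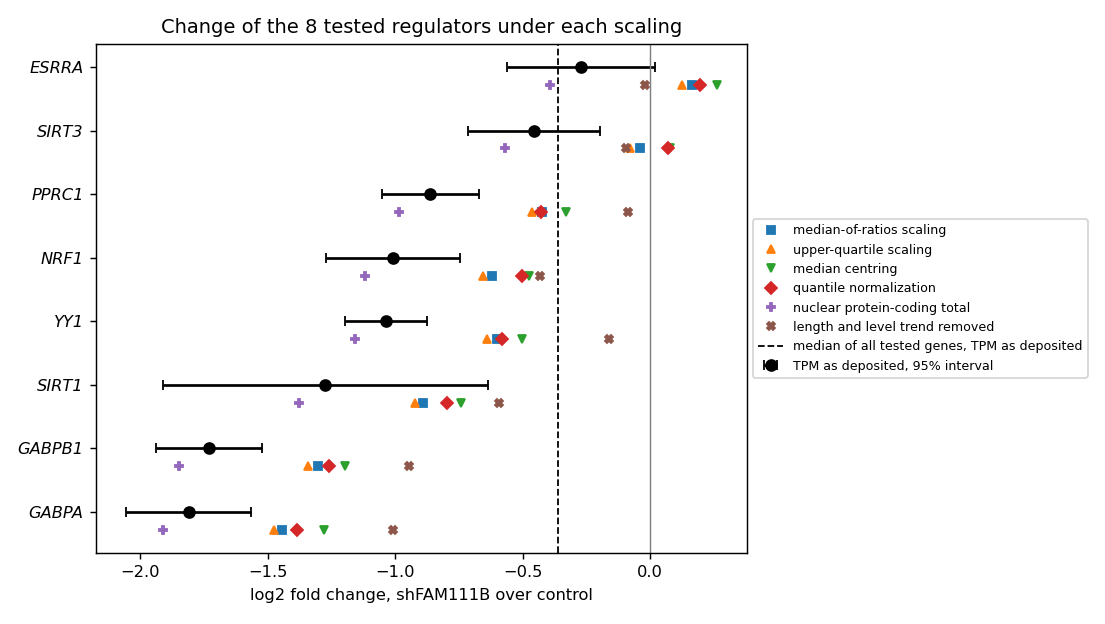
Log2 fold change (shFAM111B over control) of the 8 tested regulators with its 95% interval (black, TPM as deposited, n = 3 libraries a group) and, below each, the value under 6 other treatments of the same TPM; the dashed line is the median of all tested genes at -0.36. GABPA and GABPB1 lie furthest to the left under every treatment, and ESRRA and SIRT3 cross 0 under some.

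The fall of the set depended in part on the scaling. Scaling by the median of ratios, which sets the typical gene to no change, moved the median of all tested genes to 0.03 and that of the 8 regulators to -0.61. By that scaling 2 of the 8 fell by at least 2-fold (GABPA at -1.44 and GABPB1 at -1.30), beside 12.5% of all tested genes, and 6 fell at an adjusted p under 0.05, beside 35.2%. PPRC1, NRF1, GABPA, GABPB1, YY1 and SIRT1 kept a negative fold change under all 6 other treatments, whereas ESRRA turned to 0.17 and SIRT3 was at -0.04 under the median of ratios and at 0.08 after median centring. With the trend with length and level removed, 1 of the 8 fell by at least 2-fold (GABPA), beside 9.11% of all genes with a length, and 3 fell at an adjusted p under 0.05 (GABPA, GABPB1 and NRF1), beside 32.9%. When the mitochondrial chromosome and non-coding genes were taken out of the total, 5 of the 8 fell by at least 2-fold, beside 30.4%, and all 8 fell at an adjusted p under 0.05, beside 61.6%.

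The order of the regulators by TPM differed between the groups. In the control cells PPRC1 (35.6 TPM), GABPB1 (33.3 TPM) and YY1 (32.4 TPM) led and overlapped as neighbours, followed by ESRRA (25.5 TPM), SIRT3 (12.4 TPM), and then GABPA (10.4 TPM), SIRT1 (10.2 TPM) and NRF1 (9.45 TPM), whose neighbouring ranges overlapped. In the shFAM111B cells ESRRA led at 20.8 TPM without overlap with PPRC1 at 19.1 TPM, YY1 followed at 15.3 TPM, and GABPB1 (9.32 TPM) overlapped SIRT3 (8.81 TPM). GABPA came eighth at 2.25 TPM, below NRF1 (4.21 TPM) and SIRT1 (3.86 TPM), which overlapped each other. The summed TPM of the 10 genes were 168, 166 and 177 in the control and 87.2, 83.5 and 81.9 in the shFAM111B libraries.

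**Figure D3:**
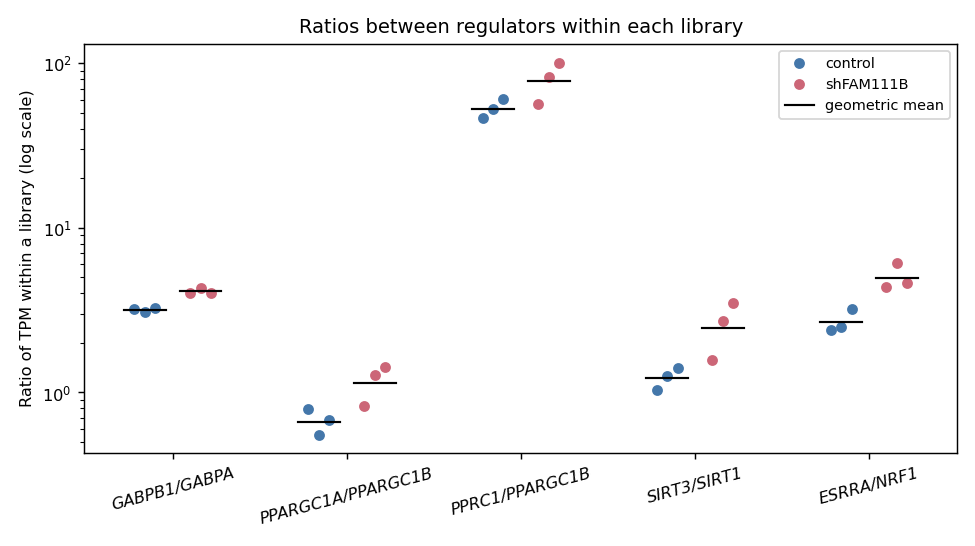
Ratio of the TPM of 2 regulators within each library (log axis) for the 5 ratios compared, with the geometric mean of each group as a bar (n = 3). GABPB1/GABPA, PPARGC1A/PPARGC1B, SIRT3/SIRT1 and ESRRA/NRF1 are higher in every shFAM111B library than in every control library, and PPRC1/PPARGC1B overlaps.

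Of the 5 ratios, 4 were higher in the shFAM111B libraries without overlap, each at the smallest p that the exact permutation test can give. The groups of 75.2% of all tested genes did not overlap in either direction, and a share for ratios was not computed. Ratios also carry the trend with length and level. With it removed, on the log2(TPM + 1) scale, GABPB1 and GABPA were at -0.95 and -1.01, ESRRA and NRF1 at -0.02 and -0.43, and SIRT3 and SIRT1 at -0.09 and -0.59. The ratios are of TPM with nothing added, so these values are not on the same scale. With 1 TPM added to both genes and the trend left in, the differences were 0.08 for GABPB1/GABPA, 0.74 for ESRRA/NRF1 and 0.82 for SIRT3/SIRT1. The ratio of PPARGC1A to PPARGC1B, both under 1 TPM, was 0.789, 0.554 and 0.677 in the control and 0.829, 1.27 and 1.42 in the shFAM111B libraries. The ratio of PPRC1 to PPARGC1B overlapped between the groups (46.7, 53.1 and 60.3 against 56.9, 82.9 and 101, exact permutation p = 0.2, adjusted p = 0.2).

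Several regulators share their locus with a gene on the opposite strand. The labels describe a stranded library kit, and whether strand was used in counting is not given in the sources used here, so reads from the shared stretches could have been counted for either gene. The pairs below are all annotated genes that overlap a member and pass the same filter on TPM, apart from AL133523.1, an antisense gene at YY1 that was listed at 0 in 2 libraries. They were chosen after the members' values had been seen.

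ATP5PF, which encodes a peripheral stalk subunit of ATP synthase, overlaps the 5′ end of GABPA by 1104 bases, head to head. It had 379, 365 and 346 TPM in the control and 511, 521 and 570 TPM in the shFAM111B libraries (log2 fold change 0.55, limma adjusted p = 0.000128). ATP5PF rose where GABPA fell, and the ratio of ATP5PF to GABPA went from between 33.3 and 35.8 to between 226 and 250 (6.79-fold, exact permutation p = 0.1). PSMD13, which encodes a regulatory subunit of the proteasome, overlaps the 5′ end of SIRT3 by 386 bases. PSMD13 rose from 140, 144 and 148 TPM to 181, 174 and 198 TPM (log2 fold change 0.35, limma adjusted p = 0.00136), and its ratio to SIRT3 was 1.81-fold higher in the shFAM111B libraries without overlap.

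TRMT112, an activator of methyltransferases that modify tRNA and other substrates, overlaps the 3′ end of ESRRA by 284 bases, tail to tail. It rose from 157, 159 and 176 TPM to 313, 283 and 340 TPM (log2 fold change 0.92, limma adjusted p = 4.74e-05). GABPB1-AS1, an antisense RNA that overlaps the 5′ end of GABPB1 by 450 bases, had 9.66, 10.35 and 8.83 TPM in the control and 8.34, 10.1 and 10.46 TPM in the shFAM111B libraries. Its groups overlapped, with a 95% interval of the log2 fold change from -0.27 to 0.26, but GABPB1-AS1 rose under the median of ratios (0.41, limma adjusted p = 0.0127) and with the trend removed (0.97, limma adjusted p = 0.000218). The ratio of GABPB1-AS1 to GABPB1 went from 0.264, 0.328 and 0.279 to 0.951, 1.02 and 1.13. GABPB1-IT1, on the same strand within GABPB1, had 0.77 to 1.21 TPM in the control and 1.32 to 1.42 TPM in the shFAM111B libraries (limma adjusted p = 0.149). In all 5 pairs the ratio of partner to regulator was higher in the shFAM111B libraries without overlap (exact permutation p = 0.1 each, the smallest possible, also after adjustment over the 5 pairs). Of all tested genes, only 4.68% and 5.75% had as low or a lower fold change than GABPA and GABPB1. A higher ratio to these regulators is therefore not particular to the partners, and the share over all genes was not computed. With the trend removed ATP5PF, PSMD13 and TRMT112 rose by 0.17, 0.38 and 0.45.

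**Figure D4:**
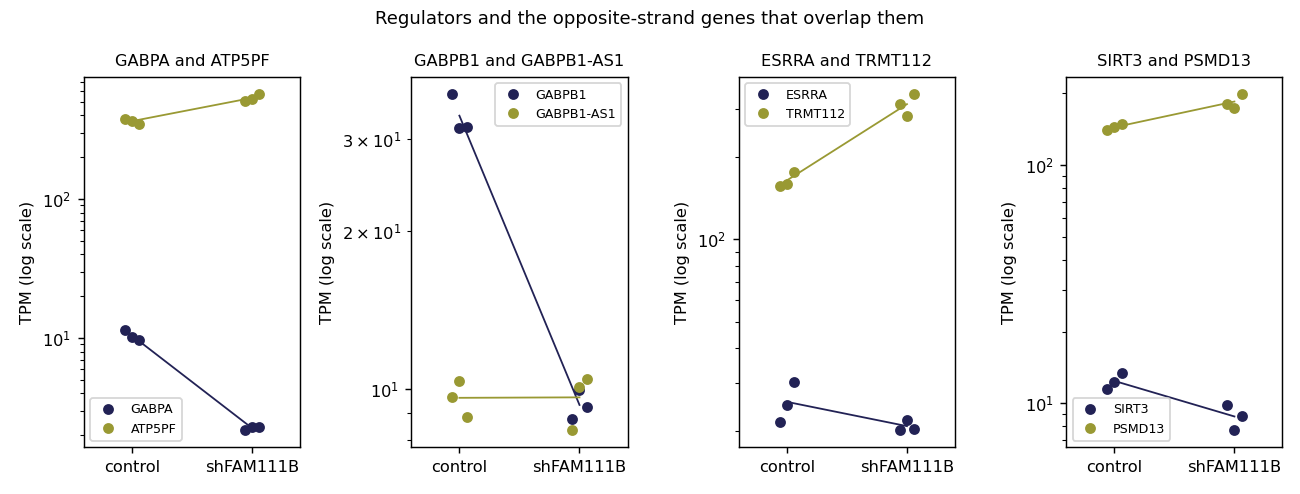
TPM (log axis) of 4 regulators (dark) and of the opposite-strand gene that overlaps each (olive) in the control and shFAM111B libraries, with lines joining the group means (n = 3). The 3 protein-coding partners are higher in every shFAM111B library than in every control library, GABPB1-AS1 overlaps, and GABPA, GABPB1 and SIRT3 are lower in every shFAM111B library.

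The GABPA and SIRT3 promoters are shown because each holds the ETS element that GABPA itself binds. Both stretches of 30 bases are given on the strand of the named gene, with the element in capitals. On that strand it reads ACTTCCGG, the reverse complement of CCGGAAGT.
GABPA: acctccgctctACTTCCGGccctggctccg
SIRT3: aatgctcactcACTTCCGGcgccgagcggc
The first is at chr21:25734894-25734923 (plus strand) and the second at chr11:236953-236982 (minus strand), in GRCh38.p14 from RefSeq. The matches begin 67 bases before the RefSeq start of GABPA and 40 bases before that of SIRT3. In GENCODE v29 the GABPA stretch lies within exons and untranslated regions of both GABPA and ATP5PF, and the SIRT3 stretch lies upstream of SIRT3 within an exon and untranslated region of PSMD13. CCGGAAGT was found in 2 of the 9 member promoters that RefSeq's table holds (all but NRF1) and in 4.14% of all 35116 promoters. All member windows but that of PPARGC1B were richer in G and C (60.3% to 82.7%) than the median promoter (58.7%). They also held more CG pairs (21 to 49, beside a median of 14). The share over all promoters was not matched for this, and an excess among the members was not tested.

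Other elements were searched in the same 9 windows on both strands. The palindromic NRF1 element (1.24% of all promoters), the ERR element TCAAGGTCA (0.353%) and the cyclic AMP response element TGACGTCA (1.85%) were found in 0 of the 9. The windows of PPARGC1A and PPARGC1B lie 568816 bases upstream and 41642 bases downstream of the gene starts in GENCODE v29, so they cover other start sites than those of the gene models used for length. The matches given here are of letters, and binding was not measured.

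The genes around the regulators were counted from lists chosen by function. The counts at an adjusted p under 0.05 are to be read beside the shares of all tested genes, of which 50.9% fell and 21.1% rose with the TPM as deposited, 35.2% and 35.8% under the median of ratios, and 32.9% and 31.1% with the trend with length and level removed. Of 20 energy and signal inputs to the PGC-1 coactivators, all tested, 15 fell and 3 rose, with a median log2 fold change of -0.83, and 9 fell and 6 rose with the trend removed (median -0.20). PRKAA1, the alpha1 catalytic subunit of AMPK, fell from 99.29, 80.67 and 76.03 TPM to 15.25, 14.59 and 15.94 TPM (-2.40, limma adjusted p = 3.78e-06). PRKAB2, an AMPK beta subunit (-1.56), and MEF2A, a factor that activates the PPARGC1A promoter (-2.14), also fell by at least 2-fold. PRKAB1 and STK11 did not pass (-0.11 and 0.03), and both rose with the trend removed (0.58 and 0.50). CRTC1, CRTC2 and TFEB, activators of PGC-1alpha transcription, were the inputs that rose, with log2 fold changes of 0.73, 0.65 and 0.80. Their relatives CRTC3 and TFE3 fell by at least 2-fold (-1.36 and -1.02). TFEB had 0.25, 0.64 and 0.84 TPM in the control and 1.65, 1.45 and 2.04 TPM in the shFAM111B libraries. It thus passed the filter on TPM only through the group where it was higher, which favours a rise. PRKAA2, among those that fell, passed only through the control libraries (2.31, 2.54 and 1.95 TPM, against 0.89, 0.94 and 0.77 TPM).

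Of 16 cofactors and modifiers of the PGC-1 coactivators, 15 were tested, 11 fell and 0 rose (median -0.82). EP300, an acetyltransferase that PGC-1alpha recruits, fell from 17.47, 17.43 and 22.06 TPM to 1.09, 1.27 and 0.88 TPM (-3.26, limma adjusted p = 3.39e-06). Its paralog CREBBP (-1.77) and the corepressor NRIP1 (-1.96) fell as well. PRMT1, KAT2A, RNF34 and GSK3B did not pass and had log2 fold changes from -0.13 to 0.17. Of 12 partner nuclear receptors and factors, 10 were tested, 9 fell and 0 rose (median -0.91). HNF4A (-1.25), NR3C1 (-1.88) and PPARG (-1.38) had the smallest p of those that fell by at least 2-fold. Under the median of ratios 9 of the 15 cofactors fell and 3 rose, and 8 of the 10 partners fell. With the trend removed 7 of the 15 cofactors fell and 3 rose (median -0.18), and 4 of the 10 partners fell and 0 rose (median -0.17).

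The textbook targets of NRF1 and GABP moved both ways. Of 25 targets, all tested, 7 fell and 14 rose at an adjusted p under 0.05, beside 50.9% and 21.1% of all tested genes, with a median of 0.18. COX7B, a cytochrome c oxidase subunit, rose from 52.59, 54.48 and 55.44 TPM to 254.55, 265.45 and 331.53 TPM (2.36, limma adjusted p = 3.56e-06), and COX5A rose by 1.22. SDHD, a subunit of succinate dehydrogenase, fell by 1.16, and CYCS, the classical NRF1 target that encodes cytochrome c, fell by 0.33. CYCS was at the median gene (0.03 relative to it). It did not pass under the median of ratios (0.12, limma adjusted p = 0.177) or with the trend removed (-0.02, limma adjusted p = 0.857). More targets rose than fell under every scaling tried, among them the median of ratios (18 and 5), quantile normalization (14 and 10) and the nuclear protein-coding total (12 and 9), but 9 rose and 9 fell with the trend with length and level removed, which leaves no direction for the list.

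TFAM and TFB2M, targets of NRF1 and GABP that act on mitochondrial DNA, were lower in the shFAM111B cells. A link to the lower NRF1 and GABP levels was not tested. TFAM had 44.45, 39.08 and 37.06 TPM in the control and 9.73, 9.39 and 8.77 TPM in the shFAM111B libraries (log2 fold change -1.997, limma adjusted p = 3.91e-06). TFB2M had 44.25, 40.06 and 44.49 TPM and 12.28, 11.74 and 10.83 TPM (-1.80, limma adjusted p = 3.61e-06). Neither gene's groups overlapped. TFB1M, in the same list, did not fall. It had 8.3, 7.82 and 9.23 TPM in the control and 7.13, 11.08 and 10.13 TPM in the shFAM111B libraries (0.13, limma adjusted p = 0.501). Under the median of ratios TFB1M rose (0.54, limma adjusted p = 0.019). POLRMT, the mitochondrial RNA polymerase, rose by 1.13, and among all 14 genes of mitochondrial DNA expression and replication 8 fell and 2 rose, beside 50.9% and 21.1% of all tested genes, with a median of -0.42. Under the median of ratios 3 of the 14 fell and 4 rose, and with the trend removed 4 fell and 3 rose. TFAM and TFB2M were at -1.17 and -1.72 with the trend removed.

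The genes that supply or modify SIRT1 moved both ways. Of 10, 9 were tested, 3 fell and 3 rose (median 0.16), beside 50.9% and 21.1% of all tested genes, and 3 fell and 6 rose under the median of ratios and with the trend removed. NMNAT3, counted among those that fell, had 1.87, 1.83 and 1.75 TPM in the control and 0.52, 0.33 and 0.18 TPM in the shFAM111B libraries. It thus passed the filter on TPM only through the control libraries, which favours a fall. NAMPT, the rate-limiting enzyme of NAD salvage, fell from 61.67, 53.41 and 51.81 TPM to 16.86, 18.84 and 15.85 TPM (-1.64, limma adjusted p = 8.56e-06). NNMT, which methylates nicotinamide, rose (1.66), as did RPS19BP1, an activator of SIRT1 (1.28), and QPRT (0.75). CCAR2, an inhibitor of SIRT1, and NMNAT3 fell (-0.81 and -1.08). CCAR2 was at -0.36 under the median of ratios and at -0.31 with the trend removed.

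Downstream of PGC-1alpha in liver, 7 of 12 listed genes were tested, 6 fell and 1 rose (median -1.26), beside 50.9% and 21.1% of all tested genes, and 4 fell and 1 rose with the trend removed (median -0.91). CPT1A, the rate-limiting step of fatty acid import into mitochondria, went from 18.92, 21.88 and 20.42 TPM to 3.43, 3.75 and 3.24 TPM (-2.26, limma adjusted p = 3.56e-06), and SOD2 (-1.33) and CAT (-1.43), antioxidant enzymes, fell too. The gluconeogenic gene PCK1 was under 1 TPM in every library. Of 11 listed substrates of SIRT3, 9 were tested, 5 fell and 1 rose (median -0.45), a share near that of all tested genes, and under the median of ratios 4 fell and 4 rose. SOD2, which is in both lists, and FOXO3 (-1.24) fell by at least 2-fold, and IDH2 rose by 0.40.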

How the data were processed

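RNA-seq was compared between 3 control and 3 shFAM111B libraries of Huh7 cells. The authors deposited TPM per gene and library, and the labels describe poly(A) selection and a stranded kit. The submitters' processing notes name RSEM, DESeq2 and hg38 without versions, and strand use is not given in the sources used here. The deposited table also holds group means and the authors' own comparison as a fold change (ratio), its log2 and p-values, none of which was used. TPM carry no depth, so no count test was run. The 14394 genes that reached 1 TPM in 3 or more of the 6 libraries were tested on log2(TPM + 1) in limma 3.58.1 (lmFit, eBayes with a trend, R 4.3.3), without covariates, with Benjamini-Hochberg adjustment. The design had foreseen this test for TPM. A call needed an adjusted p under 0.05 and, for 2-fold calls, a fold change of at least 2, and fold changes of low genes are understated by the pseudocount. Ratios were tested by a two-sided exact permutation test (20 arrangements).

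The members and lists were chosen with earlier results of these data known. Named genes were all members, FAM111B, relatives of members, up to 3 called genes per list with the smallest p, and the 3 genes nearest to GABPA, of which 1 is not reported here. Genes of the overlapping loci, and list genes outside this rule (such as TFEB, IDH2, CYCS, CCAR2 and those that did not pass), were named after their values were seen. In lists of 13 hepatic genes and 12 substrates, 1 symbol each is an alias absent from the table. Positions and longest transcripts come from GENCODE v29 (GRCh38), which holds 58420 of the 60666 identifiers (96.3%), and promoters from RefSeq (GRCh38.p14), which matched 9 of the 10 members. Lengths need not be those of the expressed transcripts. The trend with length and level was a loess fit (span 0.75). No library pair was close to a duplicate. The labels do not say that replicate numbers pair the libraries. The test was checked on simulated data. Python 3.11.15, pandas 2.3.3 and matplotlib 3.10.9 made the tables and figures. Alternatives were other filters, pseudocounts and scalings, trend removal, limma without its variance trend, a replicate block and leaving out each library.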

Additional observations from a re-analysis of the deposited data

How the results depend on the processing

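Of 136 values of the tested regulators under alternatives, 112 kept their direction and their side of the 2-fold call, 18 kept the direction and lost the call, and 6 changed sign. PPRC1, ESRRA and SIRT3 had no 2-fold call to lose, and a change in the adjusted p alone is not counted. Such changes were in SIRT3 under the median of ratios (limma adjusted p = 0.763) and in PPRC1 with the trend removed (limma adjusted p = 0.376), among others. ESRRA passed under the nuclear protein-coding total (limma adjusted p = 0.0166). The sign changed for ESRRA under the median of ratios (0.17), the upper quartile (0.13), median centring (0.26) and quantile normalization (0.19), and for SIRT3 under median centring (0.078) and quantile normalization (0.068). GABPA kept its 2-fold call in every alternative, between -2.16 and -1.01. GABPB1 lost it only with the trend removed (-0.95), NRF1, YY1 and SIRT1 lost it under the 4 scalings named above and with the trend removed, and NRF1 also without control replicate 2 or shFAM111B replicate 2. Against 5 regulators with a 2-fold fall, 2 had it under the median of ratios, the upper quartile, median centring and quantile normalization, and 1 with the trend removed. Under these the median of all tested genes moved to between -0.030 and 0.17. Leaving out each library gave 4 to 5 lower and 0 higher.

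Over all genes, 974 rose and 3406 fell by at least 2-fold, so 77.8% of calls were lower. The counts were 2017 and 1793 under the median of ratios (47.1% lower), 1884 and 1905 under the upper quartile, 2574 and 1305 under median centring, 1673 and 1846 under quantile normalization and 1361 and 1300 with the trend removed. The nuclear protein-coding total gave 473 higher and 3654 lower, at least 1 TPM in every library gave 634 higher, and no limit on the fold gave 3044 higher and 7326 lower. Leaving out each library gave 904 to 1073 higher and 3360 to 3545 lower, and FAM111B stayed between -2.25 and -2.15.

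The difference in the ratio of PPRC1 to PPARGC1B, 0.56 on the log2 scale, turned to -0.45 with 1 TPM added to both genes, a pseudocount larger than every PPARGC1B value. Leaving out each library gave 0.34 to 0.39 for GABPB1/GABPA, 0.62 to 1.013 for PPARGC1A/PPARGC1B, 0.37 to 0.79 for PPRC1/PPARGC1B, 0.77 to 1.34 for SIRT3/SIRT1 and 0.75 to 1.02 for ESRRA/NRF1, with no exact p under 0.1.

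With the replicate number as a block, 983 genes rose, 3402 fell and 5 regulators fell by at least 2-fold. The pairing is not given by the labels, and same-numbered libraries deviated together by correlations of 0.054, 0.035 and 0.091. Differently numbered libraries had correlations from -0.076 to 0.044, and whether these differ was not tested. A paired exact test of 3 pairs cannot go below p = 0.25. A count test (edgeR or DESeq2) was not run, because the table holds no counts. Depth limits PPARGC1A and PPARGC1B most, since the reads behind a value under 1 TPM are unknown.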
